A study of Mus musculus with 9 samples.

Results

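The genes described here are 37 genes of glucose uptake, glycolysis and pyruvate entry into mitochondria, taken by symbol from the 46095 gene symbols of a count table. They were measured by RNA sequencing in bone marrow-derived macrophages (BMDMs), primary macrophages that develop from marrow precursors in a dish, of wild-type Balb/c mice aged 6 weeks. The 9 libraries form 3 groups of 3, here called Con (control), LPS, and LPS+BHB. The labels spell out neither LPS nor BHB and give no dose or time. LPS is the usual short name of lipopolysaccharide, a molecule of the bacterial surface sensed by Toll-like receptor 4, and BHB that of the ketone body beta-hydroxybutyrate. No group had BHB without LPS, so every value for BHB is a value on top of LPS, and the cultures are a model of cells outside the animal. Whether the replicates are separate cultures or animals is not in the labels, and p-values therefore describe the spread among these libraries only, which may be technical.

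Glucose enters a macrophage through transporters of the SLC2A (GLUT) family and is trapped as glucose 6-phosphate by a hexokinase. Phosphofructokinase commits it to glycolysis, the enzymes from aldolase to pyruvate kinase turn it into pyruvate while making ATP and NADH, and lactate dehydrogenase regenerates NAD by reducing pyruvate to lactate. Pyruvate that is not reduced passes the mitochondrial pyruvate carrier (MPC) and becomes acetyl-CoA through the pyruvate dehydrogenase complex, which pyruvate dehydrogenase kinases (PDK) switch off by phosphorylation. Macrophages activated by LPS are known for high glycolysis. Several genes of the route are known targets of the hypoxia-inducible factor HIF-1, whose binding core is ACGTG or GCGTG.

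Total counts per library ran from 29633411 to 32798920. The member genes held 0.504% ± 0.0162 of all counts in Con, 0.616% ± 0.00983 in LPS and 0.803% ± 0.0189 in LPS+BHB (SD, n = 3 each), with no overlap between groups. All 8 macrophage markers had counts in every group, but their summed level was 18565 to 21945 CPM (counts as a share of the library, corrected for composition and set to a common total) in Con, 7755 to 8957 in LPS and 9297 to 9725 in LPS+BHB, most of it Lyz2. Markers of neutrophils summed to at most 6.65 CPM, of B cells to at most 0.282, of erythroid cells and megakaryocytes to at most 0.834 and of mast cells and basophils to at most 1.88 in any library. The T and NK cell list reached 12.8 CPM and was nearly all Cd4, and the dendritic cell list 341.6 to 612.9 CPM, most of it Itgax. The stromal list stood at 5.72 to 13.8 CPM in Con, 97.7 to 108 in LPS and 130 to 159 in LPS+BHB, and Pdgfrb was its top gene in each group. Pdgfrb alone averaged 3.54, 98.5 and 138 CPM in Con, LPS and LPS+BHB. Of the 5 stromal markers tested, it was the only 1 called in any comparison. Members of a list did not all move alike. Of the macrophage markers 1 was higher in LPS than in Con (Adgre1, log2 0.61 ± 0.05) and 7 were lower, with Fcgr1 at -6.49 ± 0.10. Of the dendritic cell markers, Zbtb46 rose from 0.869 to 20.3 CPM (log2 4.54 ± 0.17, adjusted p = 6.2e-16), while Itgax was not called (adjusted p = 0.22). In LPS+BHB against LPS, 4 macrophage markers were higher and 2 lower (all genes 26.4% and 24.4%), with Fcgr1 at 1.05 ± 0.16 and Mrc1 at -1.01 ± 0.14. There Zbtb46 fell by 0.57 ± 0.12 on the log2 scale (adjusted p = 0.0005) and Itgax was not called (adjusted p = 0.20). The part of these shifts in the results below was not tested. Con replicates 2 and 3 held 67 and 55 counts of Nos2, a gene induced by LPS, and Con replicate 1 held 0, which allows up to 3, against 14022 to 14535 in the LPS libraries. In bulk RNA, fewer cells of a type and less RNA per cell cannot be told apart.

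The promoter windows of the members are described here as sequence context only. They were searched after most members had been seen to rise with BHB, and a link between the 2 was not tested. The windows of RefSeq (GRCm38.p6, from 250 bases before to 50 bases after a start site) were searched for ACGTG or GCGTG on both strands. The box CACGTG holds ACGTG on both strands and so counts as 2 overlapping matches. A window was found for 36 of the 37 genes, 53 windows in all. Of these, 40 (75.5%) held a match, against 43.8% of all 32851 windows, and 47.2% held at least 2 matches against 20.6%. Some windows of the same gene overlap and hold the same matches, as for Aldoa and Eno1, so the windows are not independent. By gene, 30 of the 36 held a match in any window. The share by gene was not computed for all genes, and a gene with several windows has more chances of a match. The member windows were also richer in G and C, with a median of 61% against 52.7%, and this difference was not corrected for. CACGTG was in 6 windows (11.3%) against 7.15% of all. The 250 bases before the start site are printed for 4 genes, chosen after their values were seen. Pdk1 and Ldha are among the members that rose most in LPS+BHB against LPS, and Slc2a6 and Hk3 are those that fell most. Capitals mark the matches, each sequence runs 5′ to 3′ on the gene's own strand, and no exon of the GENCODE vM21 annotation lies in these 4 stretches.

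Pdk1 promoter (chr2:71872974-71873223, + strand):
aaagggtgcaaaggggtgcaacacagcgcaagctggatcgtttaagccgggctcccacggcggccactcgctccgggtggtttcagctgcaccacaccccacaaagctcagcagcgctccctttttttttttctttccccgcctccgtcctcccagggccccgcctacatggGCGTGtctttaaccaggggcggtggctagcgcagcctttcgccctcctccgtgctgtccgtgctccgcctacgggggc

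Ldha promoter (chr7:46845554-46845803, + strand):
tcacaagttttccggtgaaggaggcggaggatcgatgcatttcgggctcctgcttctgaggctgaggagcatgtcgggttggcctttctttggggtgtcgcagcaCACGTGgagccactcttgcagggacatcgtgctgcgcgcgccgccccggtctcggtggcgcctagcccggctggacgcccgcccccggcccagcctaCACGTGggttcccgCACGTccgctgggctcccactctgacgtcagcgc

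Slc2a6 promoter (chr2:27027999-27028248, - strand):
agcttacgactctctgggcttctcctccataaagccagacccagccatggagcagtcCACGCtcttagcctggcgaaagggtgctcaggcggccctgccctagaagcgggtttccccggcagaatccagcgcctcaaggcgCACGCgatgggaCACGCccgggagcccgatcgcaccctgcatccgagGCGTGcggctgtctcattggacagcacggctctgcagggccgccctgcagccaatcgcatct

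Hk3 promoter (chr13:55021386-55021635, - strand):
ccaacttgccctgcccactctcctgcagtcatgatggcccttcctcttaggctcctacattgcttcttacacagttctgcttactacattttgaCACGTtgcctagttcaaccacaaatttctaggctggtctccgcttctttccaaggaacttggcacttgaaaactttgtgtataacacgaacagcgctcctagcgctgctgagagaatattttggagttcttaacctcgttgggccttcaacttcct

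The stretch before Ldha held 5 matches, which include 2 CACGTG boxes. That before Pdk1 held 1, that before Slc2a6 held 4 and that before Hk3 held 1. In the whole windows, with the 50 bases after the start, Ldha had 7 matches and Pdk1 had 2. A second RefSeq start site of Ldha had 2 and one of Pdk1 had 0. A match is a run of letters and not a measured binding site, and nothing about the direction of change is read from these 4 genes.

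With LPS the genes of the route moved in both directions. Of 35 members with enough counts to be tested, 17 were higher in LPS than in Con and 16 were lower, by the quasi-likelihood test of edgeR at an adjusted p under 0.05 (Benjamini-Hochberg, over 14026 genes). Across all tested genes 79.8% were called, 38.4% higher and 41.4% lower, and of the members 94.3%, 48.6% and 45.7%. Members changed by at least 2-fold were 8 higher and 11 lower (all genes 18.7% and 26.3%). The median log2 fold change of the members was 0.02, against -0.06 over all tested genes. The largest rises were in Slc2a6, Hk2, Pfkp, Slc2a1 and Eno2, and the largest falls in Slc2a3, Fbp1, Pdk2 and Pfkfb4. Slc2a3 and Fbp1 had enough counts only in Con, so they could only be lower, and both are among the lower members counted above. When libraries were scaled by their totals alone, which moves the median of all genes by -0.27, the split of the members was 13 higher and 19 lower, and that of all 14026 genes 4283 and 7084.

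With BHB added to LPS the members moved mainly upward. Of the 35, 22 were higher and 6 lower in LPS+BHB than in LPS. Of all tested genes 50.7% were called, 26.4% higher and 24.4% lower, and of the members 80%, 62.9% and 17.1%. At least 2-fold changes numbered 9 higher and 1 lower (all genes 7.89% and 3.36%). Their median log2 fold change was 0.50, against 0.01 over all tested genes. Pdk1, Tpi1, Gapdh, Ldha, Pfkfb4, Pfkl, Hk1 and Slc2a1 rose at least 2-fold, as did Slc2a3 at very few counts. With its pseudogene copies added, Gapdh was at 0.81 (log2), which is under 2-fold. The 6 genes that fell were Slc2a6, Hk3, Pfkfb2, Pdhb, Dlat and Mpc1. Against a fold of 1.5 rather than any change, 10 members remained higher and 1 lower (1205 and 571 of all 14026 genes).

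Compared with Con, LPS+BHB had 19 members higher and 14 lower, when 78.4% of all tested genes were called, 38% higher and 40.4% lower. This comparison shares its libraries with the other comparisons and is no separate evidence. At least 2-fold changes numbered 13 higher and 10 lower (all genes 18.2% and 23.4%). The counts of lower members again include Slc2a3 and Fbp1, which had enough counts only in Con. The median log2 fold change was 0.47, against -0.06 over all genes. Values without overlap between the groups were found for 17 members higher and 16 lower in LPS against Con (all genes 82.7%, as 39.6% and 43.1%). They were found for 23 and 6 in LPS+BHB against LPS (all genes 56.7%, as 28.7% and 28%), and for 19 and 15 in LPS+BHB against Con (all genes 80.2%, as 38.5% and 41.7%).

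**Figure D1:**
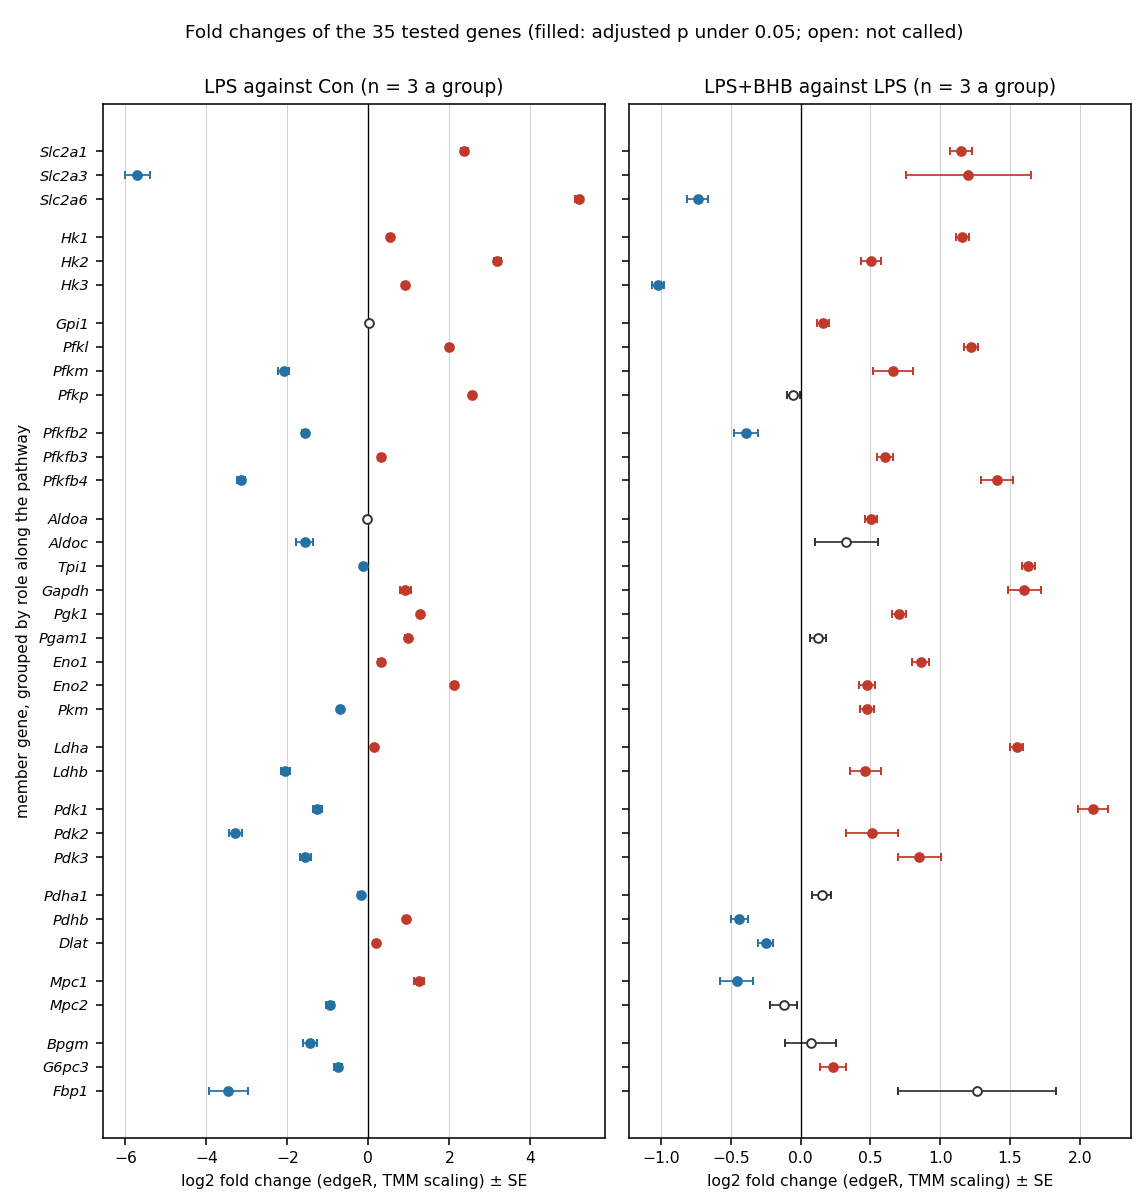
Log2 fold change (x axis, with its standard error) of the 35 tested genes in LPS against Con (left) and LPS+BHB against LPS (right), with genes grouped by role from glucose transporters at the top to side route enzymes at the bottom. Filled points passed an adjusted p of 0.05 (red higher, blue lower) and open points did not; the left side spreads from -5.70 to 5.19 and the right side from -1.02 to 2.09, with most points right of 0.

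The glucose transporters held both the largest rise and the largest fall of the members in LPS against Con. The fall was that of Slc2a3, which had enough counts only in Con and so could only be lower. Slc2a6 (GLUT6, chr2:27021363-27027998, - strand) encodes a transporter of lysosomal membranes that inflammatory stimuli induce. It stood at 22.9, 29.1 and 30.2 CPM in Con replicates 1 to 3, at 992, 991 and 1021 in LPS, and at 599, 635 and 566 in LPS+BHB. The 3 groups did not overlap, and Con replicate 1 was the lowest library. Slc2a6 was 36.5-fold higher in LPS than in Con, with a log2 fold change of 5.19 ± 0.09 (SE, adjusted p = 5.6e-16), and this became 5.45 with Con replicate 1 as the only control. It fell by 0.74 ± 0.07 on the log2 scale in LPS+BHB against LPS (adjusted p = 1.1e-06).

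Slc2a1 (GLUT1, chr4:119108711-119137983, + strand), the widely expressed plasma membrane glucose transporter, had 40.3, 45.8 and 50.3 CPM in Con, 239, 247 and 220 in LPS, and 550, 544 and 470 in LPS+BHB. Each group lay wholly above the one before. It rose 5.17-fold in LPS against Con (log2 2.37 ± 0.09, adjusted p = 3.1e-11) and 2.22-fold in LPS+BHB against LPS (log2 1.15 ± 0.08, adjusted p = 1e-07). Reads of Slc2a1 and of the antisense gene that overlaps it cannot be told apart here, since the sources used here give no strand setting.

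Slc2a3 (GLUT3), a transporter of high affinity, had 382, 342 and 338 counts in Con, 4, 3 and 9 in LPS, and 8, 17 and 12 in LPS+BHB. It entered the test only through its Con level, so a difference from Con had to be found. Its log2 fold change was -5.70 ± 0.30 in LPS against Con, and -6.30 without LPS replicate 3, the highest of the LPS libraries. Its value in LPS+BHB against LPS was 1.20 ± 0.45 (adjusted p = 0.03). These groups overlapped, the value was 1.81 without LPS replicate 3, and the call was lost in 6 of the 18 alternatives, among them without LPS replicate 1, LPS replicate 2, LPS+BHB replicate 2 or LPS+BHB replicate 3.

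Within a family, isozymes were compared as CPM per kilobase of the main transcript, since longer transcripts give more reads. Slc2a6 made up 43.8% ± 1.96 of the 3 transporters in Con, 86.6% ± 0.86 in LPS and 63.7% ± 1.22 in LPS+BHB (SD, n = 3). Slc2a1 made up 47.7% ± 0.749, 13.4% ± 0.865 and 36.3% ± 1.22. The summed level of these 3 was 29.2 CPM per kb in Con, 541 in LPS and 441 in LPS+BHB. Among the 3, the leading message per length was thus Slc2a6 in both groups given LPS, while in Con it and Slc2a1 held near shares. Hexose transporters outside the members are not in these shares, and 2 of them were tested. Slc2a8 stood at 10.1, 1.88 and 2.33 CPM per kb in Con, LPS and LPS+BHB, and Slc2a9 at 7.61, 1.52 and 2.18. Both were lower in LPS than in Con (log2 -2.43 ± 0.13 and -2.32 ± 0.10).

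**Figure D2:**
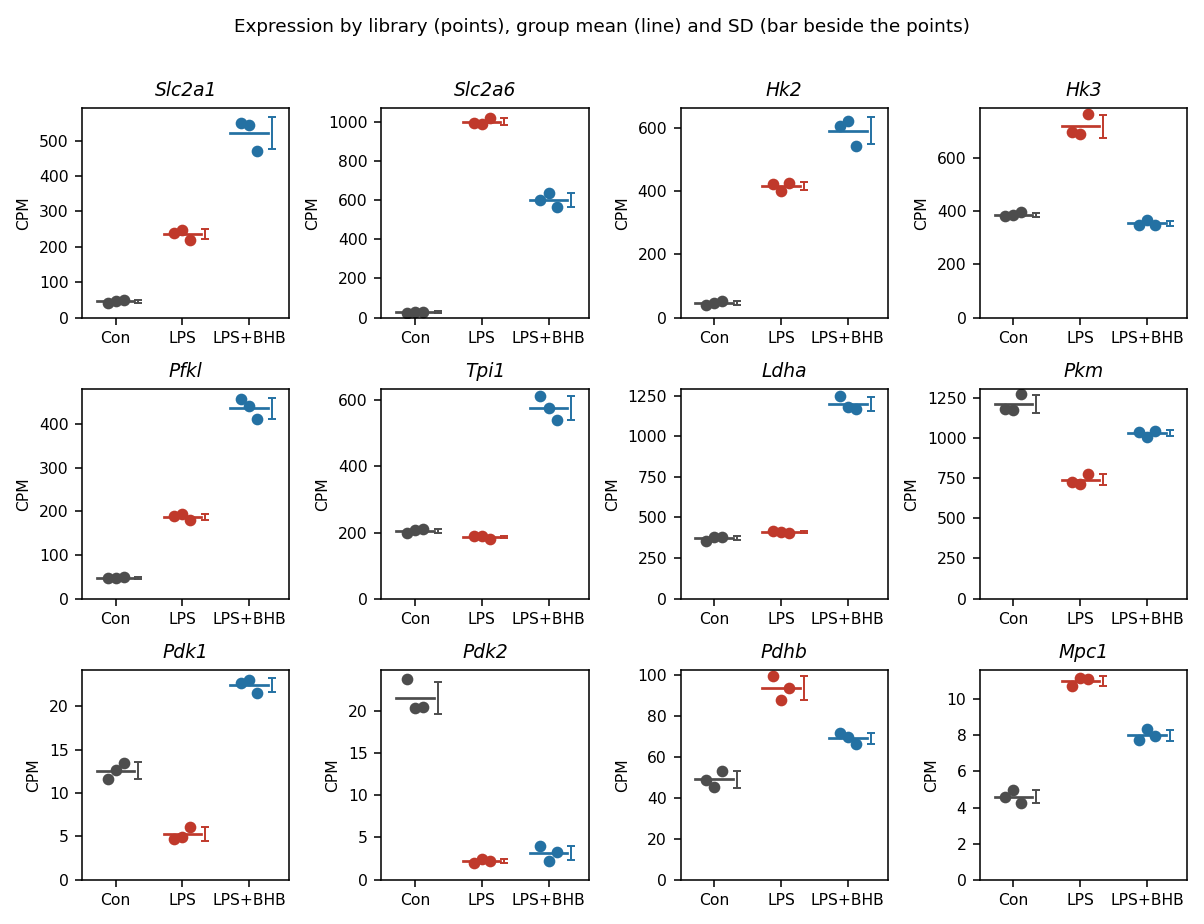
Expression in CPM (y axis, from 0, a scale of its own for each gene) of 12 genes in each library of Con, LPS and LPS+BHB. Points are libraries, horizontal lines group means and bars SD. Slc2a1, Hk2 and Pfkl step up from group to group, Slc2a6, Hk3, Pdhb and Mpc1 are highest in LPS, Tpi1 and Ldha are high in LPS+BHB alone of the 3 groups, and Pdk1 is lowest in LPS.

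All 3 hexokinases, which phosphorylate glucose, were higher in LPS than in Con, as were 38.4% of all genes. Hk2 (chr6:82725025-82774454, - strand), the inducible isozyme that binds mitochondria, had 40.2, 45.7 and 51.6 CPM in Con, 423, 401 and 425 in LPS, and 608, 623 and 542 in LPS+BHB. The groups did not overlap. Its log2 fold change was 3.18 ± 0.08 in LPS against Con (9.09-fold, adjusted p = 1e-13) and 0.50 ± 0.07 in LPS+BHB against LPS (1.42-fold, adjusted p = 5.4e-05). Con replicate 1 was again the lowest, and with it as the only control the first value was 3.37.

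Hk1 and Hk3 separated between LPS and LPS+BHB. Hk1, the mitochondria-bound isozyme of most tissues, had 105, 106 and 108 CPM in Con, 152, 162 and 148 in LPS, and 344, 332 and 354 in LPS+BHB. Hk3, the isozyme typical of myeloid cells, had 380, 383 and 394 CPM in Con, 695, 690 and 765 in LPS, and 347, 365 and 347 in LPS+BHB. Hk1 was thus highest in LPS+BHB, while Hk3 in LPS+BHB lay below its level in Con. With BHB on top of LPS, Hk1 rose by 1.16 ± 0.04 (log2, adjusted p = 1.7e-14) and Hk3 fell by 1.02 ± 0.05 on the log2 scale (adjusted p = 1.9e-13). The small fall of Hk3 in LPS+BHB against Con was log2 -0.13 ± 0.05 (adjusted p = 0.016). Its call was lost in 4 of the 18 alternatives, among them without Con replicate 3 and without LPS+BHB replicate 1.

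Per length, Hk3 was the main hexokinase message in Con at 76.9% ± 0.351, and held 65.8% ± 1.26 in LPS. In LPS+BHB the 3 shares were close, at 29.2% ± 1.62 for Hk1, 35% ± 1.72 for Hk2 and 35.8% ± 0.638 for Hk3, and those of Hk2 and Hk3 did not differ beyond their spread. The summed level was 156 CPM per kb in Con, 338 in LPS and 306 in LPS+BHB.

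At the next steps, Gpi1, which turns glucose 6-phosphate into fructose 6-phosphate, had 305 to 319 CPM in Con, 309 to 328 in LPS and 337 to 365 in LPS+BHB. Its log2 fold change of 0.02 ± 0.04 in LPS against Con was not called (adjusted p = 0.65), and it took the other sign, -0.25, with a call, under scaling by library totals. It rose in LPS+BHB against LPS by 0.16 ± 0.04 (adjusted p = 0.0049).

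The phosphofructokinases set the committed step. Pfkl (chr10:77986947-78010083, - strand), the liver-type subunit, had 46.5, 46.4 and 49.3 CPM in Con, 189, 193 and 179 in LPS, and 457, 440 and 411 in LPS+BHB. Pfkp, the platelet-type subunit, had 61.2, 67.4 and 68.8 CPM in Con, 389, 400 and 375 in LPS, and 376, 382 and 362 in LPS+BHB. Pfkl separated all 3 groups, while for Pfkp the LPS and LPS+BHB libraries overlapped. In LPS against Con, Pfkl rose by 1.98 ± 0.05 and Pfkp by 2.56 ± 0.05 (adjusted p = 1.2e-18 and 1.6e-20). In LPS+BHB against LPS, Pfkl rose by 1.22 ± 0.05 (adjusted p = 2e-14), and the value of Pfkp was -0.05 ± 0.05 (adjusted p = 0.35).

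Pfkm, the muscle-type subunit, had 15.2 to 19 CPM in Con, 3.33 to 4.62 in LPS and 5.89 to 6.84 in LPS+BHB, with log2 fold changes of -2.09 ± 0.13 and then 0.66 ± 0.14. Per length, the family's sum was 34.5 CPM per kb in Con, 145 in LPS and 209 in LPS+BHB. Pfkp held 46.1% ± 2.18, 64.5% ± 0.139 and 43.1% ± 0.838 of it, and Pfkl 36.9% ± 0.303, 34.6% ± 0.219 and 55.9% ± 0.882. Pfkl was therefore the main subunit message in LPS+BHB and Pfkp in LPS.

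The PFKFB enzymes make and remove fructose 2,6-bisphosphate, the strongest activator of phosphofructokinase. Pfkfb4 (chr9:108991778-109032228, + strand) had 67.7, 73.9 and 73.9 CPM in Con, 8.77, 8.43 and 7.07 in LPS, and 19.2, 19.6 and 25.7 in LPS+BHB. It fell to 0.113 of its Con level in LPS (log2 -3.15 ± 0.11, adjusted p = 7.9e-15) and was 2.66-fold higher in LPS+BHB than in LPS (log2 1.41 ± 0.11, adjusted p = 1e-08), still below Con. Pfkfb3, the isozyme of high kinase activity, had 42 to 45.8 CPM in Con, 52.7 to 56.6 in LPS and 80.8 to 86.6 in LPS+BHB, with log2 rises of 0.32 ± 0.06 and 0.60 ± 0.05. Under scaling by library totals the first was 0.044 and not called (adjusted p = 0.47). Pfkfb2 stood at 39.9 to 44.2, 13.7 to 14.5 and 10 to 11.2 CPM, and its values were -1.56 ± 0.08 and -0.39 ± 0.08. Pfkfb3 held 23.9% ± 0.216 of the family per length in Con, 68.2% ± 0.433 in LPS and 67.6% ± 3.5 in LPS+BHB, at a sum of 39.4, 17.3 and 26.5 CPM per kb.

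**Figure D3:**
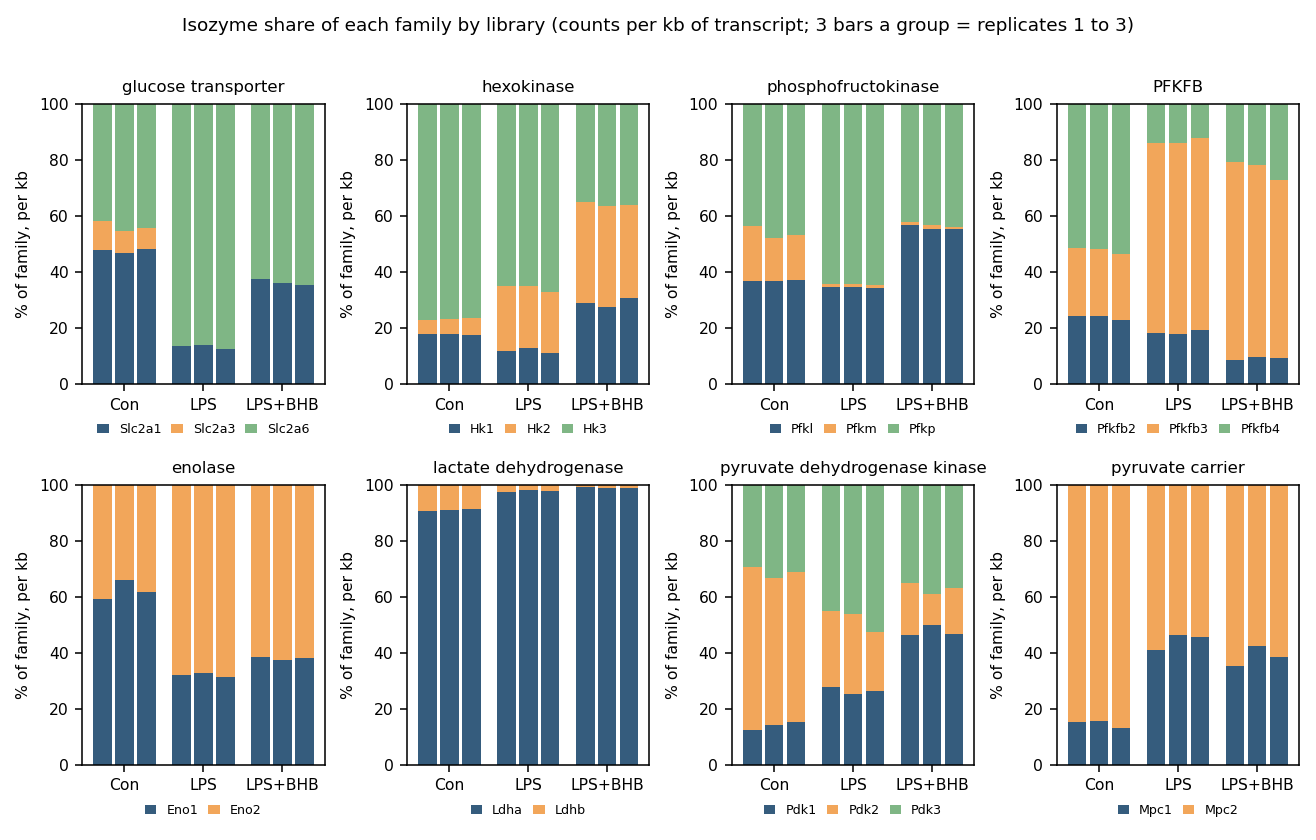
Share of each isozyme (y axis, percent of the family's counts per kilobase of transcript) in 8 enzyme or transporter families, with 3 bars a group for replicates 1 to 3. In LPS Slc2a6 holds 86.6% of the 3 member transporters and Pfkp 64.5% of the phosphofructokinases. In LPS+BHB Pfkl reaches 55.9%, the 3 hexokinases share almost evenly and Pdk1 reaches 47.7% of the kinases.

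Below the committed step, LPS changed the genes unequally while LPS+BHB was above LPS for 7 of 9 tested genes and below it for 0. Of these 9, 5 were higher and 3 lower in LPS than in Con. The background shares are those given for all genes above. Tpi1 (chr6:124810586-124814296, - strand), triose phosphate isomerase, had 198, 207 and 211 CPM in Con, 189, 188 and 182 in LPS, and 613, 576 and 542 in LPS+BHB. The LPS libraries lay just under those of Con and LPS+BHB far above both. The rise in LPS+BHB against LPS was 3.1-fold (log2 1.63 ± 0.05, adjusted p = 2.6e-16). The fall in LPS against Con, log2 -0.14 ± 0.05 (adjusted p = 0.01), was not called without LPS replicate 3 (adjusted p = 0.063) or with Con replicate 1 as the only control.

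Eno2, an enolase best known from neurons, had 66.9, 58.5 and 67.6 CPM in Con, 257, 278 and 301 in LPS, and 383, 383 and 397 in LPS+BHB. It rose in both steps, by log2 2.12 ± 0.06 (adjusted p = 1.2e-16) and 0.47 ± 0.06 (adjusted p = 1.2e-06). Eno1, the ubiquitous enolase, rose by 0.30 ± 0.06 and 0.86 ± 0.06, from 70.5 to 82.3 CPM in Con, through 88.7 to 100 in LPS, to 167 to 179 in LPS+BHB. Its first rise was 0.03 and not called under scaling by library totals (adjusted p = 0.64). Per length Eno2 held 37.7% ± 3.41 of the pair in Con, 67.9% ± 0.641 in LPS and 61.9% ± 0.473 in LPS+BHB. These shares are uncertain, since Eno1 has most of its sequence in common with Eno1b, another protein-coding gene. Eno3, the muscle enolase, was not tested, with 59 counts in all libraries together.

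Aldoa, the main aldolase, had 840 to 883 CPM in Con, 838 to 850 in LPS and 1170 to 1247 in LPS+BHB. Its value in LPS against Con, -0.04 ± 0.04, was not called (adjusted p = 0.44), but was a called fall of -0.31 under scaling by library totals (adjusted p = 1.6e-06). In LPS+BHB against LPS it rose by 0.51 ± 0.04 (adjusted p = 7e-09). Aldoc, the brain-type aldolase, was at most 0.27% of the aldolase sum per length. It fell in LPS (log2 -1.57 ± 0.21), and its value of 0.33 ± 0.23 in LPS+BHB against LPS was not called (adjusted p = 0.25).

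Pkm (chr9:59656368-59679375, + strand), pyruvate kinase, which makes pyruvate, had 1180, 1176 and 1277 CPM in Con, 727, 715 and 779 in LPS, and 1039, 1009 and 1042 in LPS+BHB. LPS was lowest, LPS+BHB in between and Con highest, with no overlap. The log2 fold change was -0.71 ± 0.05 in LPS against Con (adjusted p = 2.3e-11) and 0.48 ± 0.05 in LPS+BHB against LPS (adjusted p = 6e-08). The counts do not separate the M1 and M2 splice forms of Pkm. Pgk1, phosphoglycerate kinase, rose in both steps, by 1.27 ± 0.05 and 0.70 ± 0.05, from 34.7 to 36.8 CPM in Con to 136 to 144 in LPS+BHB. Pgam1, phosphoglycerate mutase, rose by 0.97 ± 0.06 in LPS, and its 0.12 ± 0.06 in LPS+BHB against LPS was not called (adjusted p = 0.07) except without Con replicate 2.

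Gapdh needs a caution of its own. This dehydrogenase, often used as a reference gene, is among the most abundant messages of most cells, yet it had 3.06 to 3.41 CPM in Con, 5.47 to 6.65 in LPS and 16.5 to 19.8 in LPS+BHB. Of the 31-base words of its transcript, 84.1% also occur in transcripts of other genes, and 318 of the genes that share them are pseudogenes. In the count table, 69 copies that each share at least 20% of these words held 68738 counts, against 2432 for Gapdh itself. Those copies summed to 157 ± 3.63 CPM in Con, 219 ± 6.06 in LPS and 375 ± 2.63 in LPS+BHB (SD, n = 3). The log2 fold changes of Gapdh were 0.90 ± 0.13 and 1.60 ± 0.12 by its own counts, but 0.49 and 0.81 with the copies added, all called. Its direction was thus the same both ways and its level is uncertain. The sources used here do not say how reads with several matches were counted.

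The same check was made for every member. Eno1 shared 77.2% of its words with other genes, Pgk1 68.3%, Pkm 50.9%, Mpc1 50.5%, Pgam1 42.1%, Pdhb 41.9%, Ldhb 41.4%, Gpi1 37.3%, Ldha 35.1% and Aldoa 35%. Levels of these genes are uncertain for that reason. Pfkfb2 shared 26.9%, Pdha1 20.8%, Tpi1 18.5% and Pfkp 17.5%, and the isozyme shares of such genes carry the same uncertainty. Besides Gapdh, 8 members had copies in the count table that pass the limit of 20% (Eno1, Gpi1, Ldhb, Mpc1, Pdhb, Pgam1, Pgk1 and Pkm). Adding these copies changed no call of the 8 and moved none of their values by over 1.5 times on the fold scale. For the other members no copies were added, so this alternative says nothing of them. Nor does it cover Eno1b, a protein-coding gene that shares 75.6% of the words of Eno1, so the level of Eno1 stays uncertain.

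**Figure D4:**
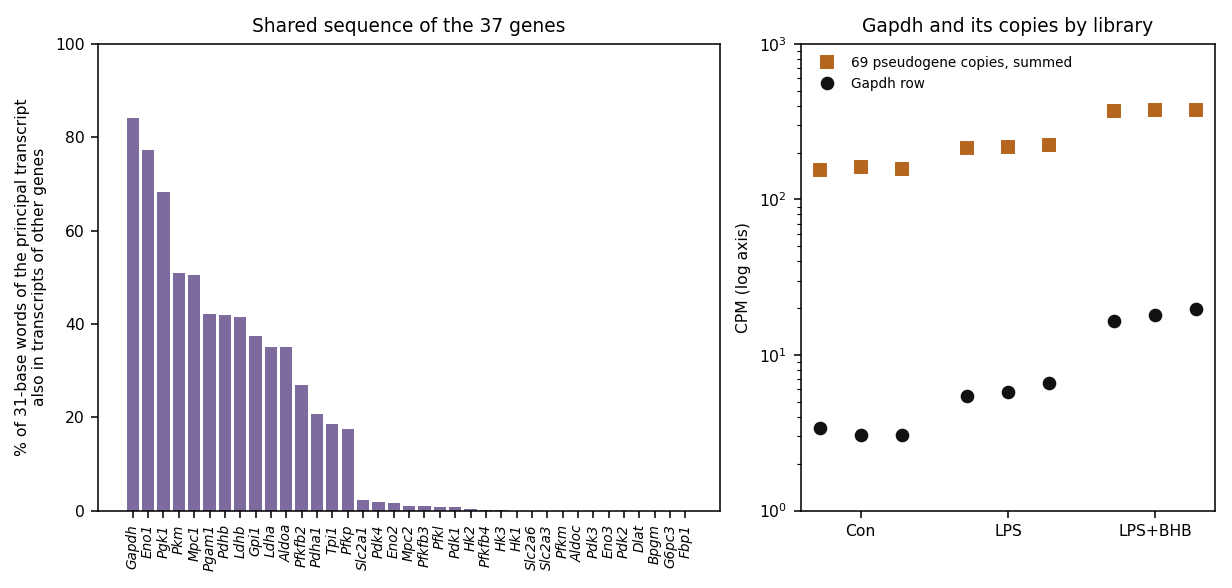
Left: percent of 31-base words of each member's main transcript (y axis) that also occur in transcripts of other genes, for the 37 genes in falling order. Right: CPM on a log axis for Gapdh (black circles) and for the sum of its 69 copies (brown squares) in each library; the copies lie at 157, 219 and 375 on average in Con, LPS and LPS+BHB, above Gapdh at 3.18, 5.96 and 18.1.

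Lactate dehydrogenase A, Ldha (chr7:46841475-46855627, + strand), which favours the making of lactate and whose promoter is printed above, had 356, 378 and 382 CPM in Con, 416, 409 and 405 in LPS, and 1246, 1181 and 1170 in LPS+BHB. The step from Con to LPS was small and that from LPS to LPS+BHB large. Ldha rose 2.92-fold in LPS+BHB against LPS (log2 1.55 ± 0.05, adjusted p = 2.5e-16). In LPS against Con its rise of 0.14 ± 0.04 (adjusted p = 0.0071) turned into a called fall, -0.13, when libraries were scaled by totals alone. Ldhb, the form that favours pyruvate, had 26.4 to 27.4 CPM in Con, 5.56 to 7.58 in LPS and 8.51 to 9.42 in LPS+BHB (log2 -2.05 ± 0.10 and 0.46 ± 0.11). Its share of the pair per length was 8.95% ± 0.386 in Con, 2.1% ± 0.301 in LPS and 1.01% ± 0.0828 in LPS+BHB.

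All 3 tested pyruvate dehydrogenase kinases were lower in LPS than in Con (41.4% of all genes were) and higher in LPS+BHB than in LPS (26.4% of all genes). Pdk1 (chr2:71873224-71903858, + strand), a kinase known as a HIF-1 target, had 11.6, 12.7 and 13.5 CPM in Con, 4.68, 4.97 and 6.12 in LPS, and 22.7, 23.1 and 21.5 in LPS+BHB. LPS was lowest and LPS+BHB highest, with no overlap. Pdk1 fell by 1.26 ± 0.11 on the log2 scale in LPS (adjusted p = 1.6e-09), rose 4.27-fold in LPS+BHB against LPS (log2 2.09 ± 0.11, adjusted p = 2.2e-12), and was 1.78-fold higher in LPS+BHB than in Con (log2 0.83 ± 0.10, adjusted p = 1.5e-07).

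Pdk2 (chr11:95026258-95041354, - strand), a widely expressed kinase of the same family, had 23.7, 20.3 and 20.4 CPM in Con, 2.01, 2.45 and 2.16 in LPS, and 3.93, 2.22 and 3.25 in LPS+BHB. It fell by 3.28 ± 0.16 on the log2 scale in LPS (adjusted p = 6e-14). Its 0.51 ± 0.19 in LPS+BHB against LPS (adjusted p = 0.029) came with overlapping groups and was lost in 6 of the 18 alternatives, among them without LPS replicate 1, LPS replicate 3, LPS+BHB replicate 1 or LPS+BHB replicate 3. Pdk3 had 11.2 to 12.2, 3.1 to 4.99 and 6.92 to 7.33 CPM (log2 -1.55 ± 0.15 and 0.85 ± 0.15). Pdk4, the kinase of fasting and fat use, was not tested, with 0 counts in the 6 Con and LPS libraries, where a count of 0 allows up to 3 in each, and 2 counts in all in LPS+BHB.

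Per length, Pdk2 held 54.8% ± 3.17 of the 3 kinases in Con, Pdk3 47.8% ± 4.03 in LPS, and Pdk1 47.7% ± 1.96 in LPS+BHB. Each group thus had a different leading kinase by this measure. By CPM alone Pdk1 led in LPS too, with a mean of 5.26 against 3.93 for Pdk3 and 2.21 for Pdk2. The order in LPS therefore depends on the transcript lengths used, 5185 bases for Pdk1 and 2115 for Pdk3. The summed level was 17.4 CPM per kb in Con, 3.85 in LPS and 9.06 in LPS+BHB.

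Of the pyruvate dehydrogenase complex, which these kinases inhibit, 3 subunits are members. Pdhb (chr14:8165996-8173025, - strand), its E1 beta subunit, had 48.6, 45 and 53.2 CPM in Con, 99.5, 87.4 and 93.6 in LPS, and 71.4, 69.4 and 66.1 in LPS+BHB. LPS was highest and Con lowest, with log2 fold changes of 0.93 ± 0.06 (adjusted p = 1.5e-11) and -0.44 ± 0.06 (adjusted p = 4.8e-06). Dlat, the E2 subunit, had 49.1 to 51.2, 55.6 to 59.5 and 48.1 to 48.5 CPM. Its rise of 0.19 ± 0.05 in LPS (adjusted p = 0.0023) became -0.08 under scaling by library totals, and it fell by 0.25 ± 0.05 in LPS+BHB against LPS (adjusted p = 0.00053). Pdha1, the E1 alpha subunit that the kinases phosphorylate, had 52.7 to 56.4, 43.5 to 50.6 and 48.8 to 56.2 CPM. Its fall of 0.19 ± 0.07 in LPS (adjusted p = 0.013) was lost without LPS replicate 3 and with Con replicate 1 as the only control. For LPS+BHB against LPS its value was 0.15 ± 0.07 (adjusted p = 0.072), which was called only without LPS+BHB replicate 2 among the alternatives.

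The subunits of the mitochondrial pyruvate carrier, which work as a pair, went opposite ways with LPS. Mpc1 (chr17:8282904-8297661, + strand) had 4.59, 4.98 and 4.25 CPM in Con, 10.7, 11.2 and 11.1 in LPS, and 7.73, 8.34 and 7.98 in LPS+BHB. Mpc2 had 27.5, 28.6 and 29.9 CPM in Con, 16.5, 13.9 and 14.2 in LPS, and 15.3, 12.1 and 13.6 in LPS+BHB. Mpc1 separated all 3 groups with LPS highest, while Mpc2 was highest in Con and its other groups overlapped. In LPS against Con, Mpc1 rose by 1.26 ± 0.12 and Mpc2 fell by 0.95 ± 0.09 on the log2 scale (adjusted p = 4.8e-09 and 6.4e-09). In LPS+BHB against LPS, Mpc1 fell by 0.46 ± 0.12 (adjusted p = 0.0024) and Mpc2 gave -0.12 ± 0.10 (adjusted p = 0.32). A copy of Mpc1 held 59.6% to 70.6% of their joint counts on average, and with it added the values of Mpc1 were 0.80 and -0.35, both called. By its own counts, Mpc1 held 14.7% ± 1.32 of the pair per length in Con, 44.3% ± 2.89 in LPS and 38.7% ± 3.69 in LPS+BHB.

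Of the side route and reverse enzymes, all 3 were lower in LPS than in Con, as were 41.4% of all genes, and 1 of them, Fbp1, could only be lower given how it passed the filter. Bpgm, which makes 2,3-bisphosphoglycerate, had 7.69, 8.08 and 7.12 CPM in Con, 3.2, 2.34 and 2.86 in LPS, and 2.54, 3.09 and 3.21 in LPS+BHB. It fell by 1.44 ± 0.17 on the log2 scale in LPS (adjusted p = 9.8e-08), and LPS+BHB and LPS overlapped (0.07 ± 0.18, adjusted p = 0.77). G6pc3, the ubiquitous glucose 6-phosphatase, had 19 to 20.3, 11 to 12.7 and 12.8 to 14.4 CPM. It fell by 0.75 ± 0.09, and its 0.23 ± 0.09 in LPS+BHB against LPS (adjusted p = 0.043) was lost in 15 of the 18 alternatives, among them DESeq2, the replicate block (adjusted p = 0.055) and the fits without LPS replicate 1, LPS replicate 3, LPS+BHB replicate 2, LPS+BHB replicate 3 or any Con replicate. Fbp1, the fructose bisphosphatase of gluconeogenesis, had 51 to 63 counts in Con, 3 to 5 in LPS and 5 to 16 in LPS+BHB, and entered the test only through Con. It fell by 3.46 ± 0.49 on the log2 scale in LPS. Its log2 fold change in LPS+BHB against LPS, 1.26 ± 0.57, was not called (adjusted p = 0.072) except without LPS+BHB replicate 2.

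A wider list of 41 genes of the same pathways that are no members gave 22 tested genes. In LPS against Con 7 were higher and 11 lower, together 81.8% of the 22, which is near the 79.8% of all genes. In LPS+BHB against LPS 8 were higher and 6 lower (63.6%, all genes 50.7%), and in LPS+BHB against Con 9 and 10 (86.4%, all genes 78.4%). Slc16a3 (MCT4), the main exporter of lactate, had 44.6 to 48.5 CPM in Con, 165 to 177 in LPS and 528 to 574 in LPS+BHB, with log2 rises of 1.90 ± 0.05 and 1.69 ± 0.05 (adjusted p = 2.2e-18 and 1.6e-16). Bsg, the chaperone that carries it to the membrane, had 146 to 152 CPM in LPS and 248 to 277 in LPS+BHB (log2 0.80 ± 0.05, adjusted p = 2.9e-11). Txnip, which lowers glucose uptake and whose message follows glucose supply, had 843 to 1043 CPM in Con, 72 to 72.8 in LPS and 177 to 220 in LPS+BHB (log2 -3.75 ± 0.11 and 1.42 ± 0.10). Reads of Txnip and of an antisense gene that overlaps it cannot be told apart.

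Pdp1, a phosphatase that switches pyruvate dehydrogenase back on, had 27.3 to 29.6 CPM in LPS and 14.3 to 15.5 in LPS+BHB. It fell by 0.90 ± 0.07 on the log2 scale (adjusted p = 1.6e-09). Pdk1 rose over the same libraries, and a link between them was not tested. Of the 5 tested pyruvate dehydrogenase subunits and phosphatases outside the members, 1 was higher and 4 lower in LPS+BHB than in LPS, when 26.4% and 24.4% of all genes were. The higher one was Pdpr, at 0.17 ± 0.06 with overlapping groups (adjusted p = 0.027). In LPS against Con 2 of the 5 were higher and 2 lower (all genes 38.4% and 41.4%). Dld, the E3 subunit, rose by 2.15 ± 0.05 in LPS (73.3 to 327 CPM on average) and Pdhx, the E3-binding subunit, by 1.48 ± 0.23. The lower ones were Pdpr at -0.69 ± 0.06 and Pdp1 at -0.18 ± 0.07. In LPS+BHB against LPS, Dld was at -0.25 ± 0.05 and Pdhx at -0.67 ± 0.22. Dld, Pdhx and Pdpr were named after their values were seen. Gpd2, the mitochondrial glycerol phosphate dehydrogenase, rose by 3.02 ± 0.05 in LPS and Pck2, the mitochondrial PEP carboxykinase, by 2.57 ± 0.05. Slc16a7 (MCT2), a transporter of pyruvate and lactate, fell by 3.14 ± 0.09 on the log2 scale in LPS, and its -0.10 ± 0.11 in LPS+BHB against LPS was not called (adjusted p = 0.48).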

How the data were processed

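Messenger RNA of 9 BMDM libraries was sequenced in 3 groups of 3. The deposited table gives the authors' raw read counts for each gene symbol, and reads were aligned with HISAT2 to mm10, per the submitters' processing notes. Not given in the sources used here are the counting tool, annotation, strand setting and treatment of reads with several matches. RNA was extracted with Trizol, per the labels' protocols.

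Counts were filtered with filterByExpr (minimum count 10), which left 14026 genes, scaled by TMM factors (0.913 to 1.15) and put through the robust quasi-likelihood model of edgeR 4.0.16 (R 4.3.3) with 3 group terms over the 9 libraries. The residual degrees of freedom were 6 and the coefficient of biological variation was 6.72%. Calls are two-sided at a Benjamini-Hochberg adjusted p of 0.05. CPM are counts over the TMM-adjusted library size. The SE was derived from the test, as the size of the log2 fold change over the root of its F statistic, and is approximate. Per-length values use the main transcript of GENCODE vM21 (GRCm38, the build of mm10), which also gave coordinates. All 37 symbols matched. Totals of 29633411 to 32798920 leave counting error small except for genes of few counts, and floors of 3 counts cover counting error only.

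The member genes and lists were chosen with earlier results of these data known. Genes with full values were chosen mainly as those with the largest called change per role and the most abundant per length. The limit was a mean of at least 5 CPM, with up to 4 other pathway genes a comparison. This rule was not followed throughout. Pkm and Bpgm have full values outside it, while Gpi1, Aldoa, Ldhb and G6pc3 meet it and have ranges. Pfkfb3, the most abundant of its family per length in LPS and LPS+BHB, also has ranges. Others named with values are members, each of which is accounted for, cell type markers, or other pathway genes named after their values were seen. Alternatives were DESeq2 1.42.0 and its size factors, library totals, no filter, only the 6 libraries compared, glmTreat, a replicate block, each library left out, Con replicates 2 and 3 left out together and, added after seeing the data, counts of pseudogene copies added to the member. Replicates differed by more than sampling noise (chi-square per degree of freedom 3.13 to 10.8) and were all counted.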

Additional observations from a re-analysis of the deposited data

How the results depend on the processing

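Over 18 alternatives, 1812 of 1890 recomputed fold changes of members kept their direction and their side of the threshold, 64 lost the call, 6 gained it and 8 changed sign. Tested against a fold of 1.5 (glmTreat), which asks for larger changes, LPS+BHB against LPS called 10 members higher and 1 lower, 3 and 1 other pathway genes, and 1205 and 571 of all genes. In LPS against Con the same test called 7 other pathway genes lower, and 3369 of all genes higher and 4164 lower. In LPS+BHB against Con it called 5 other pathway genes higher, 3265 genes higher and 3727 lower. With Con replicate 1 as the only control, 7 other pathway genes were lower in LPS against Con, 14 members were lower rather than 16 (all genes 5108 rather than 5801), and Aldoa was at 0.0085 in place of -0.04. In that fit the lone control is assumed to vary like the other groups.

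Library totals alone moved the median of all genes by -0.27 in LPS against Con, -0.05 in LPS+BHB against LPS and -0.33 in LPS+BHB against Con. All genes were then split 4283 higher and 7084 lower in LPS against Con (5390 and 5801 by TMM), and 3922 and 7366 in LPS+BHB against Con (5328 and 5662). Under this scaling Gpi1 was at -0.25, Ldha at -0.13 and Dlat at -0.081 in LPS against Con, Pfkfb3 and Eno1 lost their calls there and Aldoa gained one, and Gpi1 at -0.15 in LPS+BHB against Con.

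Leaving out each library in turn gave -0.00424 to 0.044 for Gpi1 in LPS against Con, -0.042 to 0.18 for Bpgm in LPS+BHB against LPS and -0.081 to 0.017 for Pdha1 in LPS+BHB against Con, none called in any of these fits. Members called in these fits numbered 17 higher and 14 to 16 lower in LPS against Con, 19 to 22 and 6 in LPS+BHB against LPS, and 19 and 13 to 14 in LPS+BHB against Con. All genes called ranged over 5207 to 5443 and 5597 to 5865, 3377 to 3658 and 3104 to 3378, and 5135 to 5348 and 5397 to 5649. With the replicate block (replicate number as a term), 17 and 16, 21 and 6, and 19 and 14 members were called (all genes 5348 and 5788, 3647 and 3363, 5279 and 5629), and only G6pc3 in LPS+BHB against LPS lost its call among members. Deviations of libraries with the same number were correlated at -0.0166 to 0.0392, and those of libraries with different numbers at -0.0379 to 0.043. Libraries with the same number were thus no more alike than others by this measure. With so few libraries a group, these values cannot decide whether the numbers pair the libraries, and the labels do not say. Depth limits Slc2a3, Fbp1, Eno3 and Pdk4.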
